A study of Mus musculus with 112 samples.

Results

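Complex I, the NADH dehydrogenase that feeds electrons into the respiratory chain, was followed through 43 genes in the hearts of male mice. They were all the genes whose symbol begins with Nduf and that had a probe set with 1 symbol, among 19938 genes in all. By name 36 are subunits and 7, Ndufaf1 to Ndufaf7, are assembly factors. Of the 36, Ndufa4 is now assigned to cytochrome c oxidase and Ndufa4l2 is its paralog, which left 34 subunits of complex I, 6 core and 28 accessory. Ndufb4 and Ndufs5-ps had only probe sets with several symbols, Ndufb1 and Ndufaf8 had no named probe set, and the mitochondrially encoded subunits were not analysed here.

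The hearts came from 7 strains, the inbred 129S1/SvImJ, BALB/cJ (labelled Balbc/J), C57BL/6J (labelled C57BL6/J), C3H/HeJ, CBA/J and DBA/2J, and the hybrid B6C3F1/J of C57BL/6J with C3H/HeJ. In each strain 8 mice ate the control diet and 8 a caloric restriction (CR) diet, 1 mouse per array. Every mouse was housed alone and fed 84 kcal per week until 8 weeks of age, when CR began, and was killed after an overnight fast at 22 weeks, 14 weeks into the diet. Food was cut a further time for the restricted 129S1/SvImJ and C57BL/6J mice. BALB/cJ mice were given more food than the other strains in both arms. The size of the restriction was therefore not the same in every strain. The questions were whether complex I genes respond to CR, whether the response depends on strain, and how the strains differ without CR.

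Complex I takes electrons from NADH, passes them over a flavin and a chain of iron-sulphur clusters to ubiquinone, and pumps protons across the inner mitochondrial membrane. Its core subunits carry out these steps and have bacterial counterparts. The core subunits encoded in the nucleus lie in the matrix arm, and those encoded in mitochondrial DNA lie in the membrane arm. Accessory subunits surround the core in both arms and stabilise it. Assembly factors modify subunits or hold intermediates together and are absent from the finished enzyme. Heart muscle, which contracts without pause, draws most of its ATP from the respiratory chain.

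DBA/2J CR replicate 7 was left out of every result unless stated. Its correlation with the mean of its group was 0.262. Its mean log2 signal over the 34 subunits was 5.99 against 9.72 to 10.23 in the other 7 arrays of the group. In it 39 of the 43 genes were lower than in each of those 7 arrays, as were 9091 of all 19938 genes. By Dixon's test on the same correlation, 6 more groups each held 1 array unlike its fellows. The ventricular markers Myh6, Tnni3, Myl2 and Tnnt2 had mean log2 signals of 12.70, 13.13, 12.49 and 13.25. The mean of the 8 atrial markers spread widely between mice, from 6.55 to 11.29, in every strain except 129S1/SvImJ, where the 16 arrays lay between 6.73 and 6.97. A signal depends on the probes of its set, so levels are compared within a gene only, and the percentile of mean signal serves just to pick out bright probe sets. In pieces of tissue, fewer cells of a type and less RNA per cell cannot be told apart.

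Across the 7 strains 13 of the 43 genes were higher in CR hearts and 0 were lower (limma, adjusted p under 0.05). Among all genes 7.69% were called higher and 4.34% lower. The genes that rose were 5 of the 7 assembly factors and 8 of the 28 accessory subunits, and 0 of the 6 core subunits were called. At an unadjusted p under 0.05, 27 of the 43 were higher and 0 lower, against 13.9% and 11.1% of all genes. The changes were small. The largest was a rise of 1.20-fold and the smallest of those called 1.085-fold. In all, 40 of the 43 genes had a mean above 0, with a median difference of 0.08 on the log2 scale, while 48.4% of all genes lay above 0 with a median of -0.0026. Of the 43 genes 38 were above the 80th percentile of mean signal. Among the 3988 genes above that percentile 59.2% lay above 0, with a median of 0.02, and 17.4% were called higher.

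**Figure D1:**
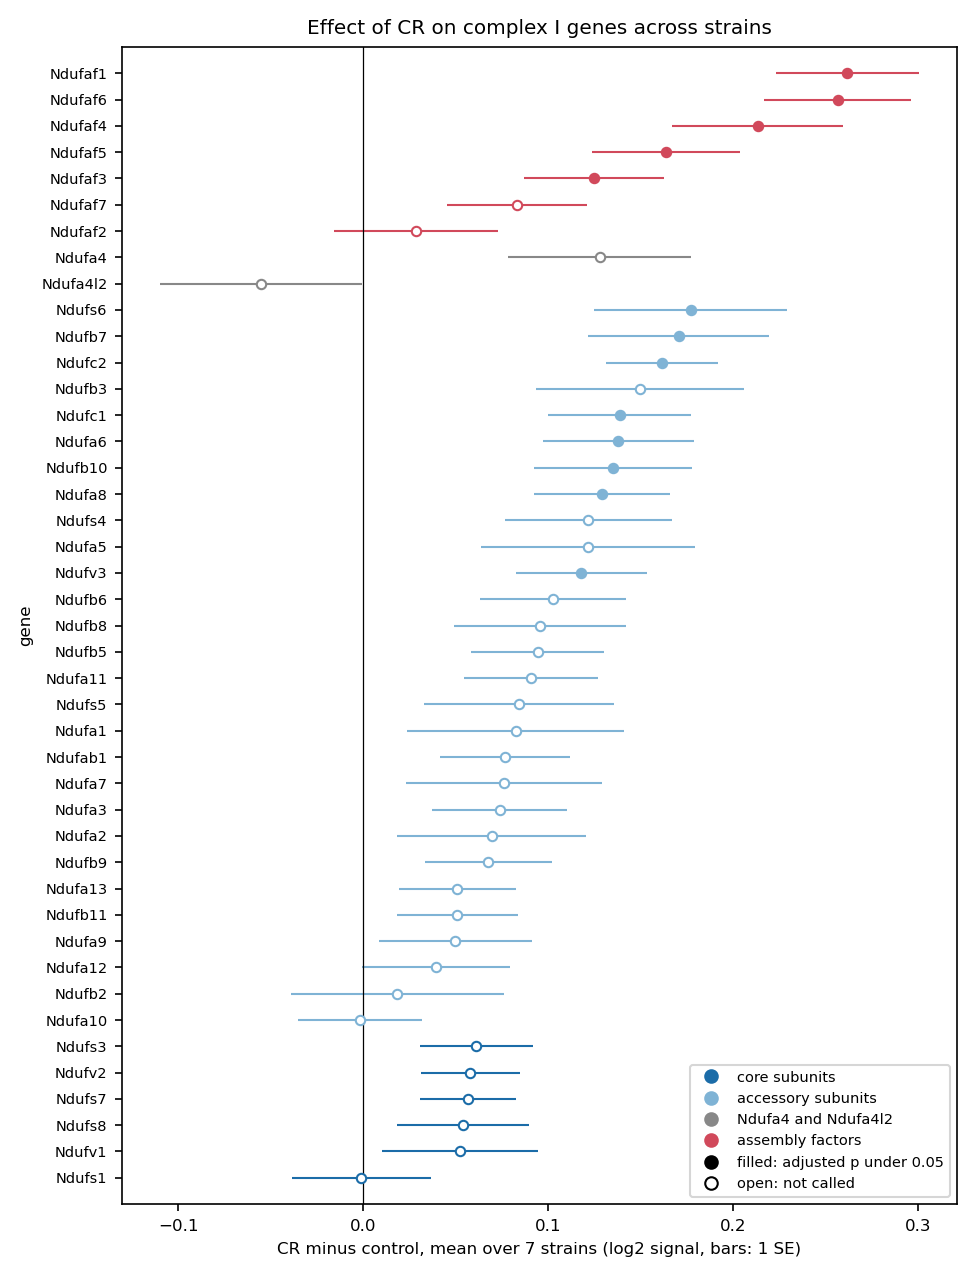
CR minus control difference in log2 signal, as the mean over 7 strains (horizontal axis, bars 1 SE), for each of the 43 genes (vertical axis) by class, with filled points for genes past an adjusted p of 0.05. The assembly factors Ndufaf1 and Ndufaf6 lie at 0.26, and the 6 core subunits lie between -0.0011 and 0.06 with open points.

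The count rested on the array that was left out and on the strains that entered. With all 112 arrays 3 of the 43 genes were called higher, Ndufaf1, Ndufaf5 and Ndufaf6, against 2.74% of all genes. Without 129S1/SvImJ 6 were called (Ndufaf1, Ndufaf4, Ndufaf5, Ndufaf6, Ndufc1 and Ndufc2), against 4.34% of all genes, and without C57BL/6J also 6 (Ndufa6 in place of Ndufc1), against 6.75%.

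The assembly factors Ndufaf1, Ndufaf6 and Ndufaf4 had the largest differences of the 43 genes. Ndufaf1, which helps to build the membrane arm, rose by 0.26 ± 0.0387 on the log2 scale (SE, 56 control and 55 CR hearts, adjusted p = 1.39e-07) and was higher in 7 of 7 strains. In 129S1/SvImJ its lowest, median and highest signals were 7.56, 7.95 and 7.99 in control hearts and 8.09, 8.26 and 8.48 in CR hearts. In C57BL/6J they were 8.73, 9.36 and 9.60 in control and 9.54, 9.80 and 10.04 in CR hearts. The 129S1/SvImJ groups did not overlap, and in C57BL/6J the lowest CR heart lay below the highest control heart. In BALB/cJ the signals were 7.29, 7.83 and 8.06 in control and 7.78, 8.07 and 8.26 in CR hearts, and in C3H/HeJ they were 7.65, 8.05 and 8.16 against 7.88, 8.25 and 8.46. In B6C3F1/J they were 7.90, 8.20 and 8.49 against 8.06, 8.40 and 8.62. These 3 strains overlapped, with the CR median above the control median in each. In CBA/J the medians were 8.22 in both diets, with a CR range of 8.01 to 8.48 inside or just above the control range of 7.68 to 8.40. In DBA/2J the range was 7.60 to 8.35 in control hearts, with a median of 8.19, and 8.01 to 8.49 in the 7 CR hearts, with a median of 8.24.

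Ndufaf6, a factor of an early step of assembly, rose by 0.26 ± 0.0397 (adjusted p = 4.95e-07), also in 7 of 7 strains. In 129S1/SvImJ its signals were 5.77, 6.02 and 6.16 in control hearts (lowest, median and highest) and 6.13, 6.46 and 6.74 in CR hearts. In B6C3F1/J they were 5.73, 5.95 and 6.12 in control and 5.88, 6.22 and 6.84 in CR hearts. The CR hearts of B6C3F1/J spread more widely (SD 0.363) than its control hearts (SD 0.125), and the groups overlapped. In C57BL/6J the control hearts were the wider group, from 5.69 to 6.70 with a median of 6.04, and the CR hearts lay between 6.27 and 6.63. The other 4 strains overlapped too, and their CR means were higher by 0.14 (BALB/cJ), 0.17 (C3H/HeJ), 0.17 (CBA/J) and 0.20 (DBA/2J).

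Ndufaf3 and Ndufaf4, which bind each other on an early intermediate, rose by 0.12 ± 0.0380 (adjusted p = 0.0173) and 0.21 ± 0.0462 (adjusted p = 0.000406), each in 7 of 7 strains. For Ndufaf4 the 129S1/SvImJ signals were 7.57, 7.81 and 7.85 in control and 7.96, 8.12 and 8.49 in CR hearts, with no overlap. Ndufaf5, which modifies the core subunit Ndufs7, rose by 0.16 ± 0.0400 (adjusted p = 0.00205) in 7 of 7 strains. The remaining factors were not called. Ndufaf7, a methyltransferase, differed by 0.08 ± 0.0380 (adjusted p = 0.150), and Ndufaf2, a paralog of the subunit Ndufa12 that acts late in assembly, by 0.03 ± 0.0444 (adjusted p = 0.743). Over the 7 factors the median difference was 0.16.

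**Figure D2:**
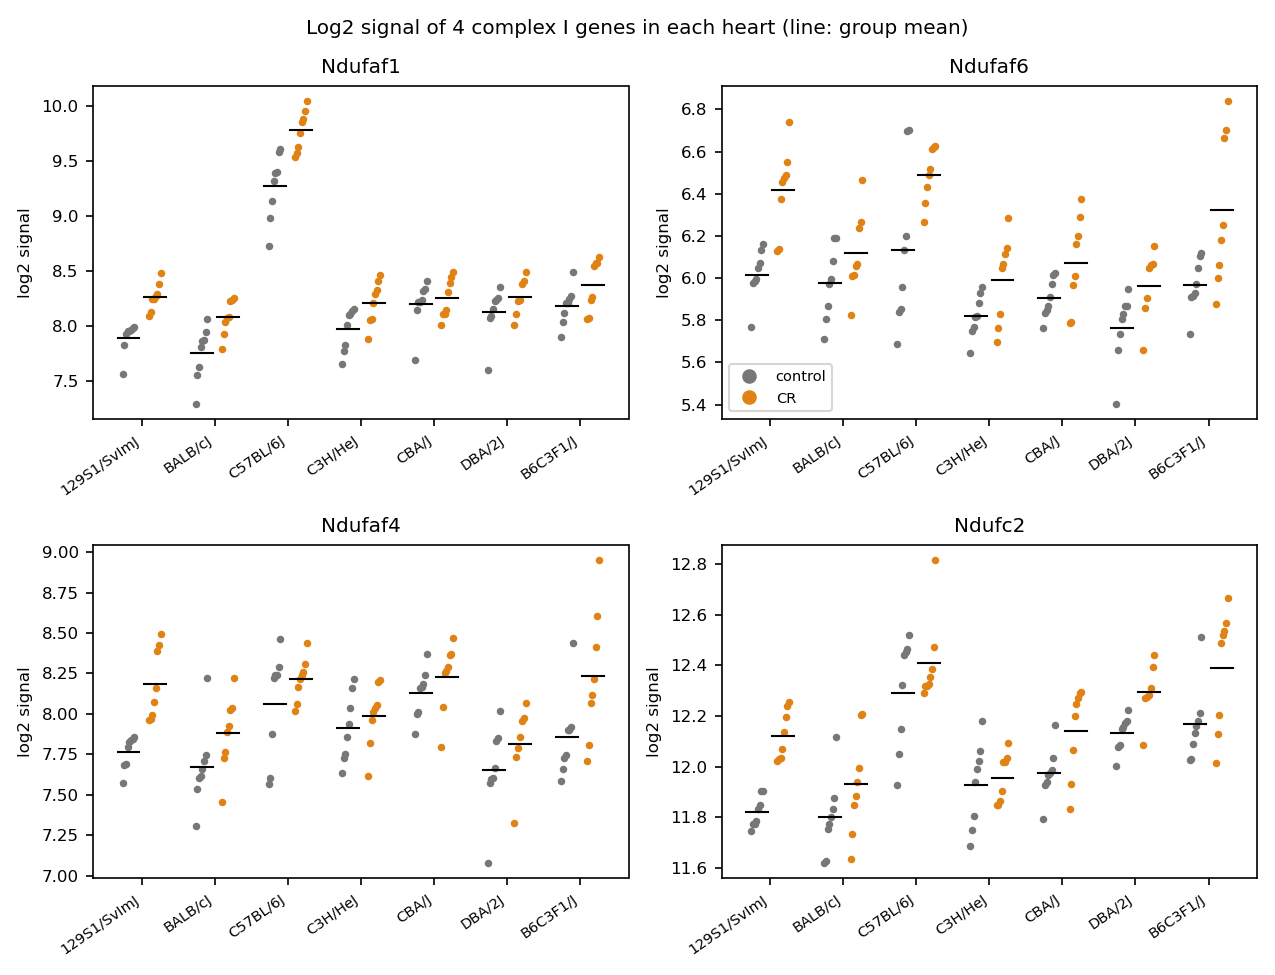
Log2 signal (vertical axis) of the assembly factors Ndufaf1, Ndufaf6 and Ndufaf4 and the subunit Ndufc2 in each heart, by strain and diet, with a line at each group mean. In 129S1/SvImJ every CR heart lies above every control heart for Ndufaf1, Ndufaf4 and Ndufc2, and Ndufaf1 of C57BL/6J lies above that of every other strain.

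The promoters of 5 genes that rose are shown to let the shared and unshared sequence features be seen. They are the 250 bases before the RefSeq start (GRCm38.p6), written 5′ to 3′ along the gene, with matches to the searched motifs in capitals. Ndufaf1 has an ETS core (CCGGAAG) and a CCAAT box read on the other strand (ATTGG), Ndufaf4 has an NRF1 core (TGCGCA, the same on either strand), Ndufc2 a CCAAT box, and Ndufs6 an NRF1 core and a CCAAT box on the other strand. Ndufaf5 has none of the motifs. Of the 8 windows read, those of Ndufaf5, Ndufc1 and Ndufa8 held no motif in these 250 bases.
Ndufaf1, chr2:119662835-119663084, - strand: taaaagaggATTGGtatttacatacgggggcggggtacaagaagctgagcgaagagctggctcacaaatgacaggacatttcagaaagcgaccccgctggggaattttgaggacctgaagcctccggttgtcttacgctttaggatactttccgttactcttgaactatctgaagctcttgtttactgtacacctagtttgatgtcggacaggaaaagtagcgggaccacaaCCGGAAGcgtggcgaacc
Ndufaf4, chr4:24897833-24898082, + strand: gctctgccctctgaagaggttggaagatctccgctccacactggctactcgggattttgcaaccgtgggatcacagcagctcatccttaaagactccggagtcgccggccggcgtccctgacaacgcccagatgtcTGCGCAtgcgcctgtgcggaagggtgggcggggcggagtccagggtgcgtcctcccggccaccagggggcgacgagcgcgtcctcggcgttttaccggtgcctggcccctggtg
Ndufaf5, chr2:140170396-140170645, + strand: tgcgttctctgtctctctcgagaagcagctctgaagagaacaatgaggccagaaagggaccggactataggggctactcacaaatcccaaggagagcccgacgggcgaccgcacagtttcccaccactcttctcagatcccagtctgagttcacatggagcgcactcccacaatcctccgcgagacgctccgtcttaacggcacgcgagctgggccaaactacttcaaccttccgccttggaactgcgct
Ndufc2, chr7:97399753-97400002, + strand: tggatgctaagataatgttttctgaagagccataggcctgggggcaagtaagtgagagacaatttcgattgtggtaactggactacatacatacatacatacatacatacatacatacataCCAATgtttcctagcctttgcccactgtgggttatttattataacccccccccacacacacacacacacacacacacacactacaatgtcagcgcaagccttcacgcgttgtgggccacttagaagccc
Ndufs6, chr13:73328483-73328732, - strand: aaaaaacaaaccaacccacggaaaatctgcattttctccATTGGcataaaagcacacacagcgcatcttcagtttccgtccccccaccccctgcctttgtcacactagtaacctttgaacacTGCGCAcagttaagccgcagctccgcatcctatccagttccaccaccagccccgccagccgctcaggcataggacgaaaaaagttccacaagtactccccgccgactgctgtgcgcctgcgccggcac

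Motifs were counted on both strands in windows from 250 bases before to 50 after a start, for 38 of the 43 genes and 27025 genes in all. Ndufa2, Ndufa4l2, Ndufaf6, Ndufb9 and Ndufs1 were not in the table. The NRF1 core, bound by a regulator of nuclear genes of the respiratory chain, was in 10 of the 38 (26.3%) against 8.79% of all genes. The YY1 core (AAGATGG) was in 7 (18.4%) against 7.28%, the ETS core in 5 (13.2%) against 9.93%, the CCAAT box in 12 (31.6%) against 41.1%, and the core of estrogen-related receptors (AAGGTCA) in 2 (5.26%) against 5.38%. The NRF1 core was present in 5 of the 12 genes of the table that rose with CR (Ndufa6, Ndufa8, Ndufaf4, Ndufb10 and Ndufs6) and in 5 of the 26 that were not called. No letters of these motifs overlapped in the printed windows. These are matches of letters, and no binding was measured.

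Of the accessory subunits, members of both arms rose. In the membrane arm 5 of 18 were called higher. Of all genes 7.69% were, and of genes above the 80th percentile of mean signal 17.4%. Ndufc2 rose by 0.16 ± 0.0302 (adjusted p = 3.42e-05) in 7 of 7 strains. Its 129S1/SvImJ signals were 11.75, 11.81 and 11.90 in control and 12.02, 12.10 and 12.25 in CR hearts, with no overlap, and the other strains overlapped. Its partner Ndufc1 rose by 0.14 ± 0.0386 (adjusted p = 0.00823) in 6 of 7 strains. Ndufa8, Ndufb7 and Ndufb10, which face the intermembrane space and are held by disulphide bonds, rose by 0.13 ± 0.0367 (adjusted p = 0.00997), 0.17 ± 0.0487 (adjusted p = 0.0104) and 0.14 ± 0.0429 (adjusted p = 0.0239). In the matrix arm 3 of 9 accessory subunits were called higher, against the same shares. The zinc-binding Ndufs6 rose by 0.18 ± 0.0521 (adjusted p = 0.0133), Ndufa6, a small subunit at the foot of the matrix arm, by 0.14 ± 0.0408 (adjusted p = 0.0137), and Ndufv3, at the NADH-binding tip, by 0.12 ± 0.0354 (adjusted p = 0.0157). Over the 28 accessory subunits the median difference was 0.09.

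The core subunits were not called, and their median difference was 0.06, against 0.08 over the 34 subunits. Ndufs3, Ndufs7 and Ndufv2 were higher at an unadjusted p under 0.05 (limma), as were 13.9% of all genes. Ndufs3, Ndufs7, Ndufs8, Ndufv1 and Ndufv2 differed by 0.05 to 0.06 on the log2 scale and Ndufs1, which holds several iron-sulphur clusters, by -0.0011 ± 0.0376 (adjusted p = 0.992). Ndufa4 differed by 0.13 ± 0.0494 (adjusted p = 0.0761) with a higher mean in 7 of 7 strains. Ndufa4l2, a gene induced by low oxygen, differed by -0.06 ± 0.0547 (adjusted p = 0.580), with a higher mean in 2 of 7. The difference between classes was not tested.

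Some markers of other cell types changed with the diet too, where 7.69% of all genes were called higher and 4.34% lower. The white adipocyte mean differed by -0.18, with 3 of its 9 genes called lower (Lipe, Pnpla2 and Fabp4). The rest of that list, among them Adipoq (-0.10, adjusted p = 0.863), were not called, and Retn (0.28) and Lep (0.02) lay above 0. The endothelial mean differed by -0.11, with 4 of 8 called lower, and the macrophage mean by 0.12, with 3 of 8 called higher. Of the other lists, Actc1 (ventricular), Acta2 (smooth muscle) and Ppargc1a (brown adipocyte) were called higher and Col3a1 (fibroblast) lower, and 0 genes of the atrial, skeletal muscle, lymphocyte and red blood cell lists were called. The atrial mean differed by 0.03 and the ventricular mean by 0.03. With the atrial and white adipocyte means of each array as covariates, 13 of the 43 genes were called higher, 5 of them assembly factors, against 8.36% of all genes. The part of the endothelial cells and macrophages was not tested.

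Within single strains, 129S1/SvImJ held every call. There 7 genes were higher in CR hearts and 0 lower (limma on 16 arrays, adjusted p under 0.05), against 3.88% and 2.94% of all genes. They were Ndufaf4 (0.42 ± 0.0839, adjusted p = 0.00369), Ndufaf6 (0.40 ± 0.0831, adjusted p = 0.00487), Ndufaf1 (0.37 ± 0.0718, adjusted p = 0.00267), Ndufc2 (0.30 ± 0.0555, adjusted p = 0.00191), Ndufaf5 (0.27), Ndufs6 (0.22) and Ndufaf3 (0.21). For 3 of them, Ndufaf1, Ndufaf4 and Ndufc2, every CR heart exceeded every control heart, as did 0.928% of all genes. Markers of other cells moved in this strain too. The endothelial mean differed by -0.26 with no overlap, from 8.70 to 9.04 in control and from 8.49 to 8.66 in CR hearts, and the white adipocyte mean by -0.26. Macrophage markers differed by 0.19, smooth muscle markers by 0.18 and atrial markers by 0.05, with overlap. Their part in the result was not tested, beyond the atrial and white adipocyte means as covariates in the 14-group fit. There 4 genes were called higher with these covariates (2.04% of all genes) and 4 without them (1.41%). Without control replicate 1, or without CR replicate 2, the calls for Ndufaf3 and Ndufs6 ended.

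In the other 6 strains 0 of the 43 genes were called by limma or by the methods' t-test after Benjamini-Hochberg adjustment. Among all genes the share called there was 0% in BALB/cJ, 0.251% in C57BL/6J, 0.0552% in C3H/HeJ, 0.0150% in CBA/J, 0.01% in DBA/2J and 0.908% in B6C3F1/J. At an unadjusted p under 0.05 limma counted 16 higher and 0 lower in C57BL/6J, against 6.27% and 6.33% of all genes. In B6C3F1/J it counted 7 higher and 2 lower, against 9.91% and 11.5% of all genes. The other counts, higher and lower, were 2 and 0 in BALB/cJ, 2 and 1 in C3H/HeJ, 2 and 0 in DBA/2J, and 0 and 0 in CBA/J, where 2.97% to 4.36% of all genes were higher and 2.13% to 3.43% lower. The methods' t-test at its own threshold, an unadjusted p under 0.01, counted 12 in 129S1/SvImJ, 6 in C57BL/6J, 1 each in BALB/cJ and DBA/2J and 0 in the other strains, all of them higher. The share of all genes, in either direction, was 10.6% in 129S1/SvImJ, 4.07% in C57BL/6J, 1.77% in BALB/cJ, 1.40% in DBA/2J, 2.18% in C3H/HeJ, 1.91% in CBA/J and 6.47% in B6C3F1/J.

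C57BL/6J had the highest median difference of the 7 strains, 0.18 over the 43 genes, with 42 of them above 0, while 50.7% of all genes lay above 0. Of genes above the 80th percentile of mean signal 66.1% lay above 0 in this strain, with a median of 0.08. All 34 subunits were above 0 there. The means of the 34 subunits lay between 9.88 and 10.37 in the control hearts and between 10.30 and 10.48 in the CR hearts. The largest differences, with adjusted p above the threshold, were those of Ndufaf1 (0.51 ± 0.123, adjusted p = 0.0846), Ndufb7 (0.45 ± 0.125, adjusted p = 0.125) and Ndufb10 (0.37 ± 0.119, adjusted p = 0.191). The tissue differed as well. The atrial marker mean was 9.97 ± 1.42 (SD, 8 control hearts) against 7.94 ± 1.68 (SD, 8 CR hearts), that of white adipocytes 8.23 ± 1.18 against 7.07 ± 1.24, and that of ventricular cells 11.98 ± 0.438 against 12.35 ± 0.302. With atrial and adipocyte means as covariates in the 14-group fit, the median over the 43 genes was 0.03, 26 lay above 0, Ndufaf1 was called higher and Ndufa4l2 lower (0.918% and 0.802% of all genes), where the same fit without them called 7 higher (2.77% of all genes). Without CR replicate 4, 6 genes were called higher in this strain (Ndufa8, Ndufaf1, Ndufaf3, Ndufb10, Ndufb7 and Ndufs3), against 2.78% of all genes.

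**Figure D3:**
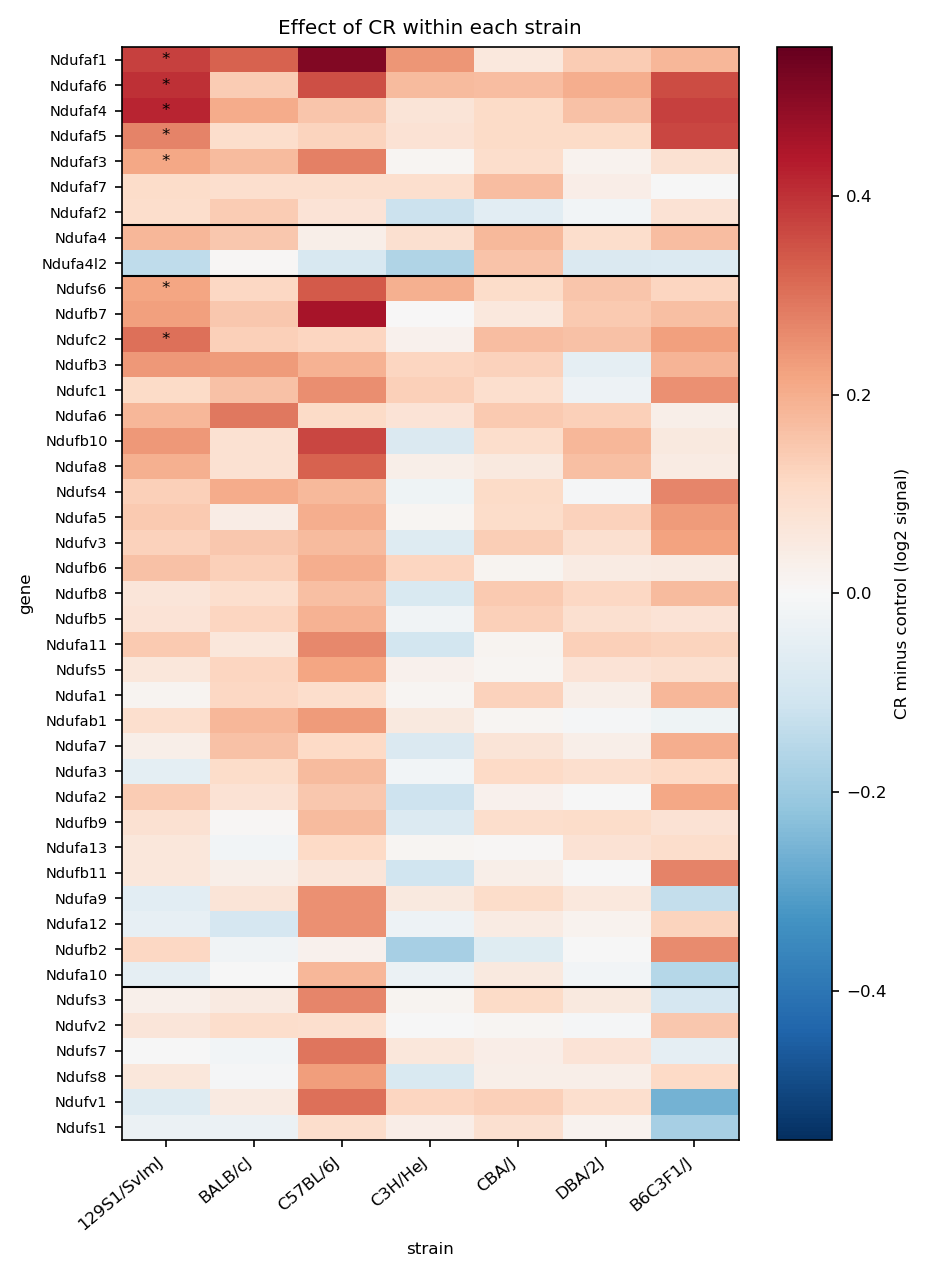
CR minus control difference in log2 signal (colour) for each of the 43 genes (vertical axis) in each strain (horizontal axis), with a star where the adjusted p within the strain is under 0.05 and lines between assembly factors, Ndufa4 and Ndufa4l2, accessory and core subunits. The 7 stars lie in 129S1/SvImJ, C57BL/6J is above 0 in 42 of 43 genes, and C3H/HeJ is close to balance with 25.

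The remaining strains had smaller medians. In B6C3F1/J 34 of 43 genes lay above 0 with a median of 0.12. The assembly factors Ndufaf4 (0.38), Ndufaf5 (0.37) and Ndufaf6 (0.36) were highest, and the core subunit Ndufv1, which binds NADH, was lowest at -0.26 ± 0.0959 (adjusted p = 0.147). In that strain 4 of 6 core subunits lay below 0, with a core median of -0.07 against 0.12 for the accessory subunits, and genes above the 80th percentile of signal had a median of -0.06. Between its diets atrial markers differed by 1.17, endothelial markers by -0.34, macrophage markers by 0.31 and ventricular markers by -0.21, and the part of the last 3 was not tested. Without its control replicate 7, which was high for both classes, Ndufaf5 and Ndufb11 were called higher, against 3.36% of all genes, and the median was 0.16. With the covariates 8 of the 43 genes were called higher in B6C3F1/J, where 7.44% of all genes were, and 5 in the same 14-group fit without them, where 6.30% were.

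In CBA/J 41 genes lay above 0 with a median of 0.10, but genes above the 80th percentile of signal had a median of 0.09 there too. BALB/cJ had 36 above 0 with a median of 0.10, DBA/2J 32 with a median of 0.07 and C3H/HeJ 25 with a median of 0.01. Single arrays moved these medians by over 1.5 times. Without BALB/cJ control replicate 7 the median was 0.05, without DBA/2J control replicate 5 it was 0.0071, without C3H/HeJ control replicate 6 it was -0.02, without CBA/J CR replicate 2 it was 0.16, and without B6C3F1/J CR replicate 2 it was 0.07.

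**Figure D4:**
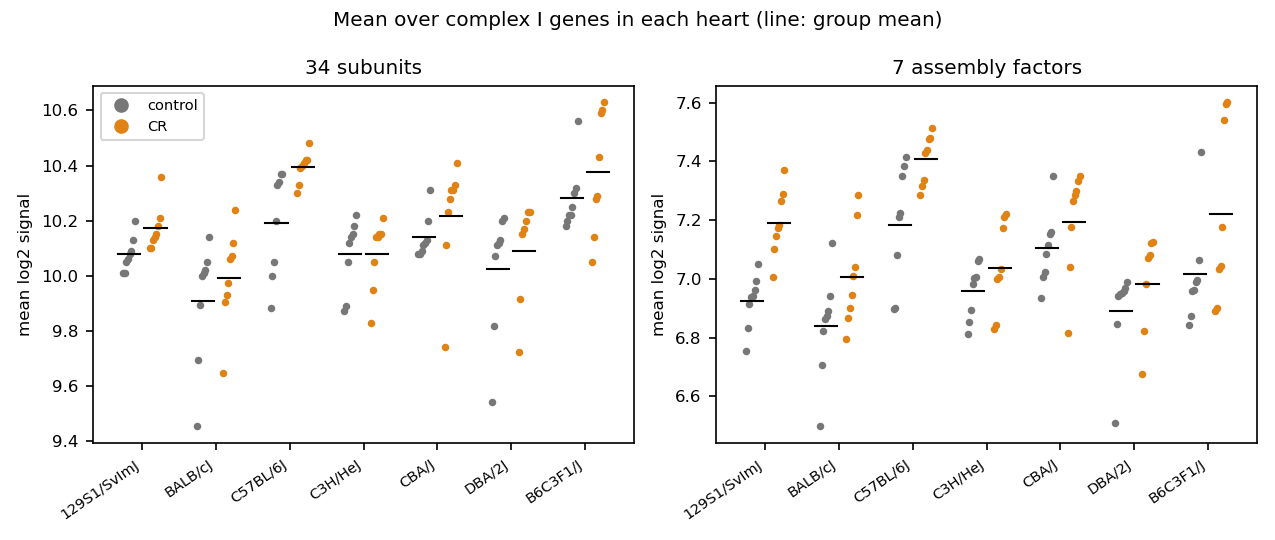
Mean log2 signal (vertical axis) over the 34 complex I subunits (left) and the 7 assembly factors (right) in each heart, by strain and diet, with a line at each group mean. The subunit mean of 129S1/SvImJ was 10.08 in control and 10.17 in CR hearts and its assembly factor mean 6.92 and 7.19, and the lowest subunit mean of the CBA/J CR hearts, 9.74, lies below the other 7 at 10.11 and above.

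The effect of CR was not shown to differ between strains for any of the 43 genes. By the moderated F test 0 of the 43 passed, against 0.712% of all genes. At an unadjusted p under 0.05 there were 3, against 14.7% of all genes. These were Ndufs7 (adjusted p = 0.231, higher by 0.29 in C57BL/6J and between -0.05 and 0.07 elsewhere), Ndufv1 (adjusted p = 0.278, 0.30 in C57BL/6J and -0.26 in B6C3F1/J) and Ndufaf1 (adjusted p = 0.320, 0.51 in C57BL/6J and 0.06 in CBA/J). The next were Ndufs3 (adjusted p = 0.412), Ndufb11 (adjusted p = 0.446) and Ndufb10 (adjusted p = 0.487). Without the 6 other arrays that stood apart, 9.18% of all genes passed, and 4 of the 43 did, Ndufv1 (adjusted p = 0.00977), Ndufs3 (adjusted p = 0.0184), Ndufaf1 (adjusted p = 0.0192) and Ndufs7 (adjusted p = 0.0224).

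The level of most complex I genes differed between strains. Among control hearts 40 of the 43 genes differed between the 7 strains (moderated F test of limma, adjusted p under 0.05), against 60.7% of all genes. Ndufa4l2 (adjusted p = 0.10), Ndufaf5 (adjusted p = 0.207) and Ndufv3 (adjusted p = 0.164) were not called. The median distance from the lowest to the highest strain mean was 0.48 on the log2 scale for the 43 genes and 0.39 for all genes. Of the 3988 genes above the 80th percentile of mean signal, 3601 were called, and their median distance was 0.54. A sequence difference under a probe and a difference in expression cannot be told apart on these arrays.

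C57BL/6J stood at an end of the order for each of the 6 genes with the smallest p. Ndufaf1 had a mean of 9.27 ± 0.303 (SD, n = 8) in C57BL/6J against 7.75 in BALB/cJ, 7.89 in 129S1/SvImJ, 7.97 in C3H/HeJ, 8.12 in DBA/2J, 8.18 in B6C3F1/J and 8.19 in CBA/J (adjusted p = 2.68e-25). Every C57BL/6J heart, the lowest at 8.73, lay above every other control heart, the highest of which was at 8.49, while the other strains overlapped with their neighbours. Ndufaf3 ran the other way, with C57BL/6J lowest at 8.13 ± 0.122 and CBA/J highest at 9.25 ± 0.128 (adjusted p = 1.4e-14). Its C57BL/6J range of 7.94 to 8.30 overlapped only with that of BALB/cJ, which began at 8.23, and the other 5 strains had means of 8.72 to 8.80.

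Ndufa6 (adjusted p = 6.44e-14) and Ndufa4 (adjusted p = 3.59e-13) were highest in C57BL/6J, with 10.67 ± 0.287 and 11.88 ± 0.325, and lowest in DBA/2J, with 9.70 ± 0.263 and 10.63 ± 0.279. Ndufc2 (adjusted p = 3.55e-08) was highest in C57BL/6J at 12.29 ± 0.221 and lowest in BALB/cJ at 11.80 ± 0.156. Ndufs7, which carries the iron-sulphur cluster next to ubiquinone (adjusted p = 3.28e-09), was lowest in C57BL/6J at 12.12 ± 0.220 and highest in BALB/cJ and CBA/J at 12.57. The strain range was as wide in CR hearts for Ndufaf1 (1.70, against 1.52 in control hearts) and narrower for Ndufs7 (0.25 against 0.45) and Ndufv1 (0.38 against 0.73). Atrial markers were also highest in the C57BL/6J control hearts. With atrial and adipocyte means as covariates 42 of the 43 genes differed between strains, against 57.6% of all genes.

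**Figure D5:**
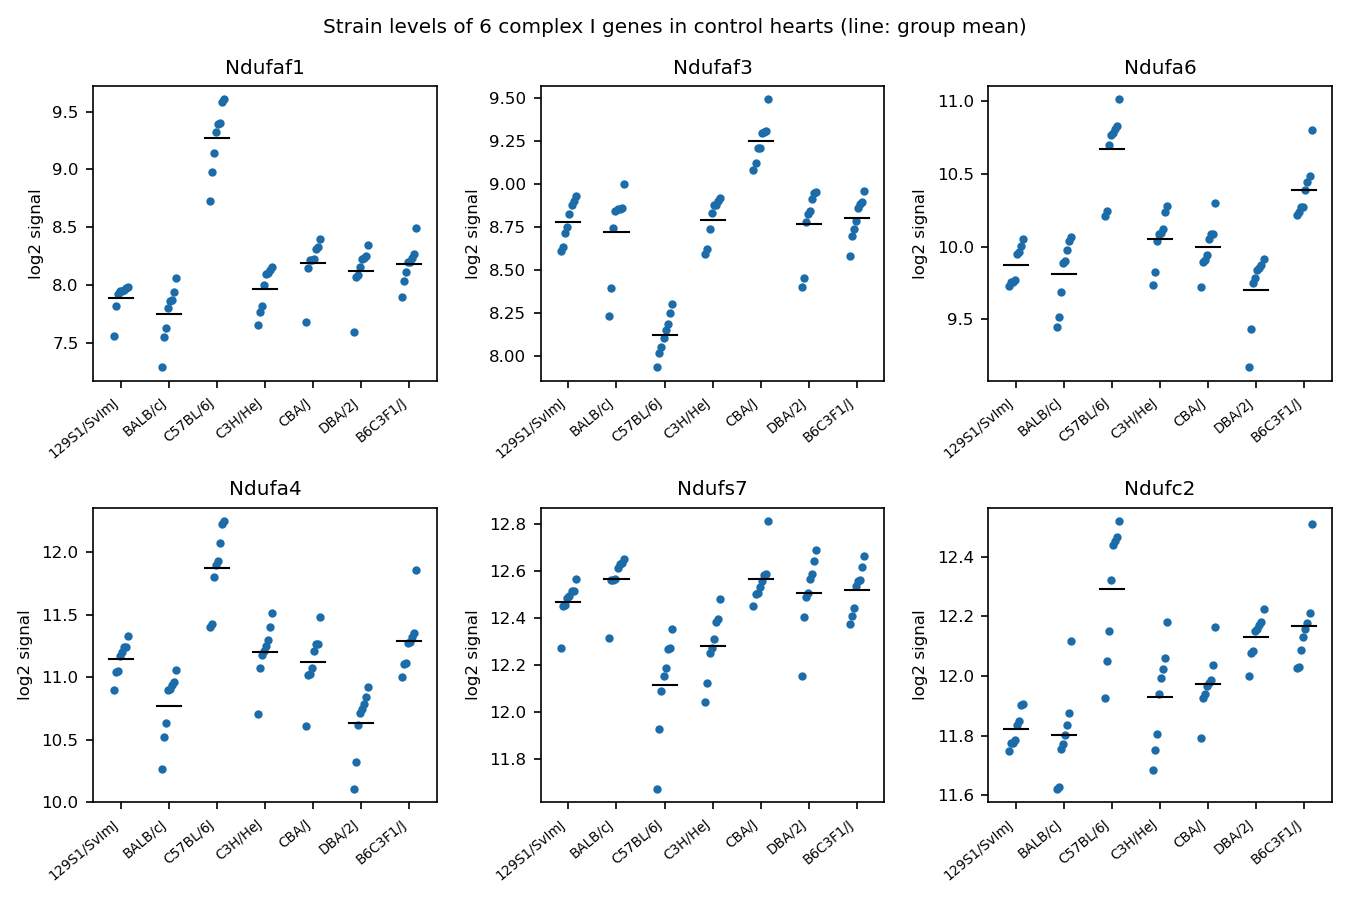
Log2 signal (vertical axis) in each control heart by strain (horizontal axis) for the 6 genes with the smallest p for strain differences, with a line at each strain mean. Ndufaf1 of C57BL/6J, from 8.73 to 9.60, lies apart from the other strains, and Ndufaf3 of C57BL/6J, from 7.94 to 8.30, is the lowest group.

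In control hearts of the hybrid, 10 of the 43 genes were above the mean of the parent strains and 1 was below (limma, adjusted p under 0.05), against 5.94% and 4.01% of all genes. Those above were 9 subunits, among them the core subunits Ndufs7 (0.32 ± 0.0590, adjusted p = 4.8e-05), Ndufv1 (0.31 ± 0.0962, adjusted p = 0.0272) and Ndufs3 (0.20 ± 0.0697, adjusted p = 0.0487), and the assembly factor Ndufaf3 (0.34 ± 0.0866, adjusted p = 0.00462). The accessory subunits were Ndufb10 (0.44), Ndufc1 (0.37), Ndufa11 (0.33), Ndufa8 (0.29), Ndufa12 (0.28) and Ndufb9 (0.23). Ndufaf1 was below the parent mean of 8.62, with 8.18 in B6C3F1/J, 7.97 in C3H/HeJ and 9.27 in C57BL/6J, a difference of -0.44 ± 0.0882 (adjusted p = 0.000249). The atrial marker mean of the hybrid control hearts was 7.71, against 9.97 and 8.10 in the parents. With the atrial and adipocyte means as covariates 7 genes were called, Ndufa11, Ndufa4, Ndufaf1, Ndufaf3, Ndufb10, Ndufc1 and Ndufs7, 5 above and 2 below, against 4.30% and 2.68% of all genes. Without C3H/HeJ control replicate 6 there were 6 above and 1 below, against 4.88% and 2.70%.

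Of 13 further assembly genes that are not named Nduf, 6 were higher and 0 lower in CR hearts across strains, 7 did not pass, and the median was 0.12. Of all genes 7.69% were called higher and 4.34% lower. Dmac1 (0.15 ± 0.0283, adjusted p = 6.76e-05), Timmdc1 (0.18 ± 0.0354, adjusted p = 0.000106), Tmem126b (0.26 ± 0.0539, adjusted p = 0.000177) and Dmac2 (0.19 ± 0.0435, adjusted p = 0.00115) had the smallest p and were higher in 7 of 7 strains. Timmdc1 and Tmem126b work with Ndufaf1 on the membrane arm. Their other partners Ecsit and Acad9 differed by 0.13 (adjusted p = 0.0908) and 0.06 (adjusted p = 0.331).

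Genes that make or insert iron-sulphur clusters, which complex I needs, had 6 of 12 higher and 1 lower, against 7.69% and 4.34% of all genes. Isca1 (0.18 ± 0.0296, adjusted p = 3.61e-06) and Glrx5 (0.19 ± 0.0387, adjusted p = 0.000230) rose, as did Isca2 (0.12, adjusted p = 0.00189), while Iba57, a partner of Isca1 and Isca2, fell by 0.25 on the log2 scale (adjusted p = 0.000180) and was higher in 0 of 7 strains. Of 17 regulators of nuclear respiratory genes 2 (11.8%) rose and 3 fell, against the same shares of all genes. The coactivator Ppargc1a rose by 0.34 ± 0.0558 (adjusted p = 2.03e-06) in 7 of 7 strains and the nuclear receptor Ppara by 0.29 ± 0.0656 (adjusted p = 0.000953). Yy1 (-0.11, adjusted p = 0.000160) and the coactivator Pprc1 (-0.14, adjusted p = 0.0102) fell, as did Nrf1 (-0.10, adjusted p = 0.0327). Nrf1 and Pprc1 were higher in 0 of 7 strains. Nrf1, Ecsit and Acad9 were named after their values were seen.

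In 5 genes a further probe set gave a check on the value. For Ndufc1 the sets differed between diets by 0.14 and 0.12, for Ndufab1 by 0.08 and 0.09, for Ndufs3 by 0.06 and 0.08, for Ndufb11 by 0.05 and 0.08, and for Ndufa11 by 0.09 and 0.09, the brighter set first. Tested among all 21789 probe sets with 1 symbol, the dimmer set of Ndufa11 passed (adjusted p = 0.0283) and the brighter did not (adjusted p = 0.0856), and both sets of Ndufc1 passed. The brighter sets of Ndufa11 and Ndufb11 have numbers among those of genes of chromosomes 16 and 5, while the genes lie on chromosomes 17 and X. The dimmer sets of Ndufc1 and Ndufs3 lie likewise among those of chromosomes 13 and 11, with the genes on 3 and 2. Ndufa11b, a transcribed pseudogene, lies on chromosome 16. Whether it, or a copy of the other genes elsewhere, shares these probes was not tested.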

How the data were processed

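Hearts of 112 male mice were measured on Affymetrix Mouse Gene 1.0 ST arrays, 1 mouse each, from 5 µg of RNA. The deposited log2 signals were produced by the authors with RMA-Sketch of the Affymetrix Expression Console (background correction, quantile normalization and median polish). The software version is not given in the sources consulted. Signals are relative within the normalization, so a shift of most genes would be partly removed, and dim genes are compressed. Arrays have no read depth, and their number limits the precision.

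The platform annotation gave a single symbol to 21789 of 35556 probe sets and several to 1621, and left 12146 unnamed. The brightest stood for each of 19938 genes, with no filter on signal. The genes, lists, classes and the rule for described genes were chosen with earlier results of these data known. The rule described the 8 genes with the smallest across-strain p and every called assembly factor, the 6 smallest interaction and control-strain p, all hybrid calls, the calls within strains, Ndufa4 and Ndufa4l2, and up to 4 genes per list. Other genes named across or within strains were chosen after their values were seen.

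Linear models were fitted in limma 3.58.1 (R 4.3.3, data.table package, version 1.17.8) on 111 arrays with 14 group means. CR minus control, averaged over strains, gave the across-strain effect. Moderated F tests compared effects between strains, and strains among control hearts. The hybrid contrast set B6C3F1/J control hearts against the mean of C57BL/6J and C3H/HeJ. Within-strain fits used 16 arrays (15 in DBA/2J). Tests were 2-sided and adjusted over all genes by Benjamini and Hochberg, at 0.05, and rest on the spread between mice. The code was tested on simulated data. Promoters were read from RefSeq (GRCm38.p6). Marker lists of 11 cell types and alternatives (other normalization, filters, weights, covariates, arrays, strains, replicate block) were used as the closing section gives. Plots used matplotlib 3.10.9, pandas 2.3.3, numpy 2.4.6 and Python 3.11.15.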

Additional observations from a re-analysis of the deposited data

Results flagged for a closer look

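Of 84 sets of group values examined (the means over subunits and over assembly factors and the signals of Ndufaf1, Ndufaf6, Ndufc2 and Ndufaf4 in each of 14 groups), 12 held an array far from the rest by Dixon's test, where chance gives about 1 in 20. B6C3F1/J control replicate 7 was the highest of its group for 4 of them. Its mean of 34 subunits was 10.56 against 10.18 to 10.32 in the others, its mean of 7 assembly factors 7.43 against 6.84 to 7.07, its Ndufc2 signal 12.51 against 12.03 to 12.21, and its Ndufaf4 signal 8.44 against 7.58 to 7.92. Without it 18 of the 43 genes were higher in CR hearts across strains, in place of 13. The array was picked out by the values of these same genes, and the share of all genes called without it is not given here.

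The subunit mean of 129S1/SvImJ CR replicate 2 was 10.36 against 10.10 to 10.21 in the rest of its group. That of CBA/J CR replicate 2 was 9.74 against 10.11 to 10.41, and without this array 17 genes were higher across strains. It too was picked out by the values of these genes, and the share of all genes is not given here. The assembly factor mean of DBA/2J control replicate 5 was 6.51 against 6.85 to 6.99, and its Ndufaf1 signal 7.60 against 8.07 to 8.35. The lymphocyte markers of this heart had the highest mean of its group, 7.81.

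In 129S1/SvImJ control replicate 1 Ndufaf1 was 7.56 against 7.82 to 7.99 and Ndufaf6 5.77 against 5.98 to 6.16. In CBA/J control replicate 1 Ndufaf1 was 7.68 against 8.15 to 8.40. In C57BL/6J CR replicate 4 Ndufc2 was 12.81 against 12.29 to 12.47.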

How the results depend on the processing

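The 13 rises across strains were recomputed under 19 alternatives each, 247 values in all, of which 216 kept the call, 31 lost it and 0 changed sign. Ndufaf1, Ndufaf5 and Ndufaf6 were called under all 19. Ndufaf4 and Ndufc2 lost the call only with all 112 arrays. The count of 13 became 3 with all 112 arrays, 21 with array weights, 6 without 129S1/SvImJ and 6 without C57BL/6J. The shares of all genes called higher there were 2.74%, 12.2%, 4.34% and 6.75%. Genes called for a strain by diet interaction went from 0 to 4 without the arrays that stood apart (chosen after seeing the data) and to 10 with array weights, where 9.18% and 33.4% of all genes were called. The 40 genes that differed among control hearts became 15 with all 112 arrays, where 40.6% of all genes were called. The 11 hybrid calls became 2 with all 112 arrays, 19 with array weights and 7 with the marker covariates. Of all genes, 2.42% were called above and 1.27% below with all 112 arrays. The shares were 14.3% and 12.2% with array weights, and 4.30% and 2.68% with the covariates. Higher genes in 129S1/SvImJ went from 7 (3.88% of all genes) to 11 with dim genes left out, where the share of all genes is not given here. They went to 4 (1.41%) with all 14 groups in 1 fit. By the t-test at an unadjusted p under 0.01 there were 12, against 10.6% of all genes in either direction. With all 14 groups in 1 fit 7 were higher in C57BL/6J and 5 in B6C3F1/J, and the t-test gave 6 in C57BL/6J, 1 in BALB/cJ and 1 in DBA/2J. With replicates of 1 number removed from both diets, the count ran from 0 to 4 in C57BL/6J (4 without replicate 4) and from 5 to 7 in 129S1/SvImJ, and the other strains stayed at 0. The cause was not tested where an alternative changed a count. Of 269 recomputed counts 250 moved by at most 1.5 times, where a count of 0 that stayed at 0 was taken as unmoved.

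The labels do not say that a replicate number links mice of both diets. Deviations of same-numbered arrays correlated between -0.441 and 0.674 over 55 pairs (median 0.109, 28 over 0.1), and 16 of 56 control arrays matched their own number best, where chance gives 7. Since not every pair was over 0.1, the numbers were not used as pairs, but that rule does not show same-numbered mice to be unlinked. The replicate block of the across-strain fit was a term for each number shared by all strains, so it does not stand for pairs within a strain. With it 13 genes were higher across strains, against 7.81% of all genes, and 10 were called in the hybrid contrast.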
